A study of Mus musculus with 9 samples.

Results

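The genes described here are 10 antioxidant genes, several of them known targets of the transcription factor NRF2, in cultured synovial fibroblasts (SFs) of mouse ankle joints. They are a list of gene symbols, and no measured value enters the rule that defines them, though the list was drawn up with earlier results of these data known. Sod1, Sod2 and Sod3 encode the superoxide dismutases, Cat and Gpx3 encode enzymes that remove peroxide, and Hmox1, Nqo1, Gclc, Gclm and Txnrd1 are NRF2 targets with other roles. They are 10 of the 49548 genes in the tables, and all 10 were above 0 in each of the 9 libraries. The study sequenced the 3′ ends of mRNA in 3 libraries from WT SFs, 3 from untreated hTNFtg SFs and 3 from hTNFtg SFs kept for 48 hours with infliximab at 1 µg/ml. The mice were CBA C57BL/6J and 8 weeks old. The hTNFtg mice carry a human TNF transgene and develop destructive polyarthritis, and infliximab is a therapeutic antibody that binds human TNF. By their labels the WT and untreated hTNFtg SFs had no treatment, while the study's methods describe a vehicle. The SFs were grown in culture after collagenase digestion of the joints, with CD45+ cells depleted at passage 1, and the sources used here do not name the promoter of the transgene. The methods call the replicates biological without saying whether each came from its own mice, so the p-values below measure the spread between these cultures.

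KEAP1 holds NRF2 (encoded by Nfe2l2) in the cytoplasm of resting cells and presents it to a CUL3 ubiquitin ligase for degradation. Oxidants and electrophiles modify KEAP1, NRF2 then accumulates, and together with a small MAF protein it binds antioxidant response elements near genes of glutathione synthesis, quinone reduction, haem breakdown, thioredoxin reduction and NADPH supply, where BACH1 acts as a repressor. Superoxide dismutases turn superoxide into hydrogen peroxide in the cytosol (SOD1), in mitochondria (SOD2) and outside the cell (SOD3), and catalase, glutathione peroxidases and peroxiredoxins remove the peroxide. Sod2 is also a textbook target of TNF signalling through NF-kB.

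In the tables' mm10 coordinates, Sod1 lay at chr16:90220742-90226322, Sod2 at chr17:13007839-13018119 and Sod3 at chr5:52363791-52371418. Cat lay at chr2:103453849-103485160 and Gpx3 at chr11:54902453-54910377. Hmox1 lay at chr8:75093621-75100589, Nqo1 at chr8:107388225-107403206, Gclc at chr9:77754535-77794485, Gclm at chr3:122245557-122270732 and Txnrd1 at chr10:82859206-82897724. Cat and Nqo1 are on the minus strand and the other 8 on the plus strand, and all 10 are annotated as protein-coding. Start and end are the same in GENCODE M21 for 7 of them, and Sod1, Sod2 and Txnrd1 have other bounds there. Gclm has exons overlapped by other genes, which is taken up with its values.

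RefSeq promoter windows (GRCm38.p6, the assembly of mm10) were matched by symbol for 7 of the 10 genes, with 9 windows because Txnrd1 has 3. The 250 bases before the start site were searched on both strands for the antioxidant response element core, written TGACNNNGC, and for the kB consensus, the site type of NF-kB. The 3 windows printed below, 5′ to 3′ on the gene's strand, belong to the genes whose hTNFtg and WT libraries did not overlap and that have an entry, with matches in capitals.
Sod2 (chr17:13007589-13007838, plus strand): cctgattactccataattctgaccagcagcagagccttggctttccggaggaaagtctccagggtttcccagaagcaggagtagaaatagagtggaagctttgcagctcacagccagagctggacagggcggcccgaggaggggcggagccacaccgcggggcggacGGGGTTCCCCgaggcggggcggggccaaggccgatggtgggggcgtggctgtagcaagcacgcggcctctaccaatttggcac
Txnrd1 (chr10:82858956-82859205, plus strand): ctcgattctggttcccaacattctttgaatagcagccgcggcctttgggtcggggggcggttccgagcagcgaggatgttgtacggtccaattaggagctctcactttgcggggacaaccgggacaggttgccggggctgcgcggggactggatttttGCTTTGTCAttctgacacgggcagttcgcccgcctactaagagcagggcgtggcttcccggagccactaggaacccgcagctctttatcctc
Gpx3 (chr11:54902604-54902853, plus strand): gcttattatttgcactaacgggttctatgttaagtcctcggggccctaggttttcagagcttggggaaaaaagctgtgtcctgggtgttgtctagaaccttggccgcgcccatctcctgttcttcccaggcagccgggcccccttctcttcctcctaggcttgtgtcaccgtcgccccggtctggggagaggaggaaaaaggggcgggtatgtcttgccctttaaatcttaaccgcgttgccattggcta
The capitals in Sod2 are a kB match, GGGGTTCCCC, 83 to 74 bases before the start. The capitals in Txnrd1 are an antioxidant response element core read on the opposite strand as TGACAAAGC, 92 to 84 bases before the start at which the tables place the gene. The Gpx3 window holds neither set of letters. Among the windows not printed, Sod1 holds the core TGACCACGC 56 to 48 bases and Gclm the core TGACGGTGC 134 to 126 bases before the start, both on the opposite strand, and those of Cat and Nqo1 and the other 2 of Txnrd1 hold neither motif. Over all 32851 windows of this length, 10.2% hold the core and 3.9% the kB consensus. These matches describe letters in a window and say nothing of binding in SFs.

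The libraries held about 613203 to 9015557 reads on genes, as estimated from what 1 read is worth in normalized counts, and hTNFtg replicate 1 was the shallowest, with the other 8 libraries 6.24 to 14.7 times as deep. In that library 1 read is worth 6.23 normalized counts, and values without this library are given beside the results that it moved most. The 10 genes rested there on 6 reads (Gclc) to 149 reads (Sod1). Fibroblast markers such as Col1a1 and Vim were high in all 9 libraries, with the 14 markers summing to 37356 to 54651 normalized counts. Others were low, with Cd55 at 7 to 56 and Fap at 12 to 38. Of the 14, 4 were higher in every hTNFtg library than in every WT library, Pdpn among them. Lower in every hTNFtg library were 3, Col1a1, Lum and Pdgfrb. Between these groups, 18.6% of genes with a mean of at least 10 normalized counts were apart in either direction. The 17 macrophage and myeloid markers summed to 218 to 842 in WT, 3549 to 8014 in hTNFtg and 2397 to 5175 with infliximab, and 15 of the 18 rows these symbols have in the tables were higher in every hTNFtg library than in every WT library. The chondrocyte markers summed to 6216 to 9349 in WT, 548 to 1212 in hTNFtg and 906 to 2517 with infliximab, mostly through Comp and Sox9. The 12 hepatocyte markers summed to 1054 in infliximab replicate 3 and to 19 to 73 elsewhere. The 6 endothelial markers summed to at most 12, and the 5 adipocyte markers to 366 to 445 in WT, 67 to 442 in hTNFtg and 123 to 218 with infliximab, nearly all of it Fabp4, with Lep and Cidec at 0 throughout. In libraries of many cells, fewer cells of a type and less RNA per cell cannot be told apart. Which cells gave the RNA of these markers, and its part in the results below, was not tested.

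The first comparison asked how hTNFtg SFs, taken at established disease, differ from WT SFs. Of the 10 genes, Sod2 and Sod3 rose and Gpx3 fell by the study's rule, which asks for a log2 fold change beyond 1 in size together with P below 0.05 before adjustment. Sod2, the mitochondrial superoxide dismutase, stood at 2.55 times its WT mean, Sod3, the extracellular one, at 2.51 times, and Gpx3, the secreted glutathione peroxidase, at 0.497 times. Sod1, Cat and the 5 NRF2 targets did not pass the rule. Over all 28522 genes tested, 3.35% rose and 3.04% fell by the same rule, and over the 13634 genes with a mean of at least 10 normalized counts, which include all 10, 4.96% rose and 4.03% fell. None of the 10 had an adjusted p under 0.05 in limma, which 0.48% of all genes tested had. In 4 of the 10 the unadjusted P was under 0.05, beside 7.72% of all genes tested and 11.8% of those with a mean of at least 10. These were Sod2, Sod3, Gpx3 and Txnrd1, of which Txnrd1 lost it under several alternatives given with its values. The adjusted p depended on the fit. Those of Sod2 and Sod3 were 0.0202 and 0.0247 in edgeR, run on approximate reads, 0.0098 and 0.0169 in 1 limma fit of all 9 libraries and 0.00213 and 0.00207 with array quality weights, which gave Gpx3 0.0206. With the replicate number as a block they were 0.478 and 0.497, and with any 1 library left out they ran from 0.116 to 0.471 for Sod2 and from 0.081 to 0.506 for Sod3. In 4 of the 10 the 3 hTNFtg and the 3 WT libraries did not overlap, as in 18.6% of genes with a mean of at least 10. The median log2 fold change was 0.14 over the 10 genes and -0.07 over genes with a mean of at least 10.

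**Figure D1:**
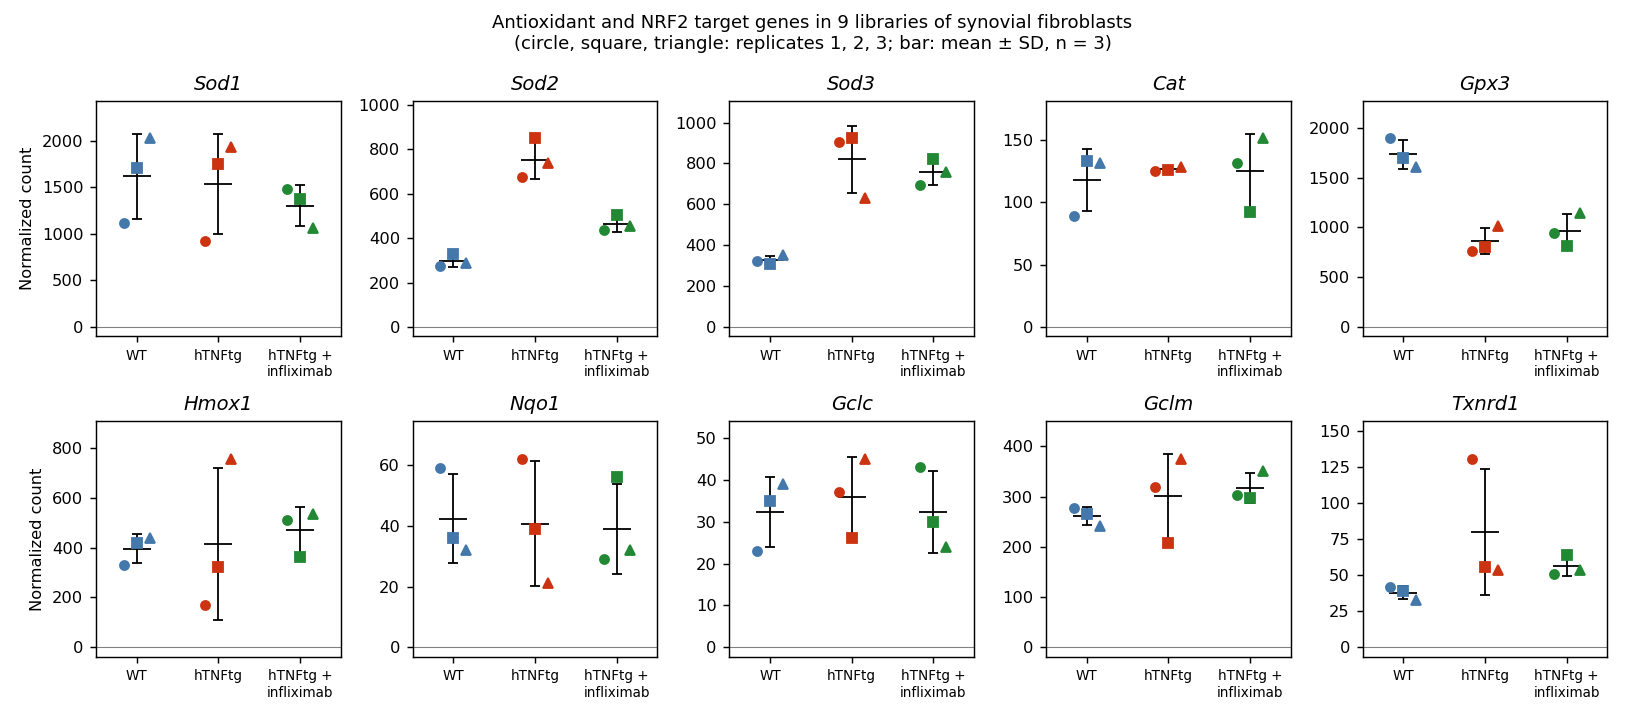
Normalized count (vertical axis, linear, 1 panel per gene) of the 10 genes in each of the 9 libraries, by group on the horizontal axis, with circles, squares and triangles for replicates 1, 2 and 3 and bars for the mean ± SD (n = 3). In the Sod2 panel the 3 groups occupy separate ranges, in the Sod3 and Gpx3 panels both hTNFtg groups lie apart from WT, and in the Hmox1 panel the untreated hTNFtg libraries spread from 168 to 756.

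In replicates 1, 2 and 3, Sod2 had 273, 327 and 287 normalized counts in the WT group, and 673, 848 and 738 in the hTNFtg group. Every hTNFtg library was thus above every WT library, with room between the groups. The means were 295.67 ± 28.0 in WT and 753 ± 88.5 in hTNFtg (SD, n = 3), a log2 fold change of 1.34 ± 0.27 (SE) with a 95% interval of 0.74 to 1.95 and an adjusted p of 0.0663 in limma. Leaving out any 1 library gave 1.25 to 1.42, and without the shallow hTNFtg replicate 1 it was 1.42. The myeloid markers were higher in the hTNFtg libraries too. Their sums were 8014, 3549 and 5978 in hTNFtg replicates 1, 2 and 3, and their part in the Sod2 value was not tested.

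Sod3 had 322, 306 and 350 normalized counts in WT and 903, 922 and 633 in hTNFtg replicates 1, 2 and 3. The hTNFtg libraries were all above WT, and replicate 3 was the nearest to it. The means were 326 ± 22.3 and 819 ± 162 (SD, n = 3), a log2 fold change of 1.31 ± 0.29 (SE) with a 95% interval of 0.68 to 1.94 and an adjusted p of 0.0885 in limma. It was 1.21 to 1.48 with any 1 library left out.

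Sod1, the cytosolic enzyme and the third of the family, had 1121, 1709 and 2024 normalized counts in WT and 928, 1754 and 1937 in hTNFtg. The groups overlapped almost fully, and in both of them replicate 1 was the lowest. The log2 fold change was -0.10 with a 95% interval of -0.96 to 0.76, which spans changes of either direction. Its sign turned with the libraries used, at 0.23 without hTNFtg replicate 1.

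Gpx3, the secreted glutathione peroxidase of extracellular fluid, had 1894, 1699 and 1612 normalized counts in WT and 766, 806 and 1014 in hTNFtg. All hTNFtg libraries were below all WT libraries. The means were 1735 ± 144 and 862 ± 133 (SD, n = 3), a log2 fold change of -1.02 ± 0.31 (SE) with a 95% interval of -1.69 to -0.35 and an adjusted p of 0.262 in limma. The value lay just beyond the rule's limit of 1, and it came to -0.95 without WT replicate 1, -0.94 without hTNFtg replicate 1 and -0.97 without hTNFtg replicate 2, each short of that limit. Of the 6 chondrocyte markers found, 4 were lower in every hTNFtg library than in every WT library. Of genes with a mean of at least 10, 18.6% were apart in either direction. The 4 were Comp, Sox9, and, at no more than 16 and 19 normalized counts, Acan and Col9a1. Matn3 and Col2a1 overlapped, with Col2a1 at 60, 51 and 94 in WT and 75, 88 and 37 in hTNFtg. The part of these markers' RNA in the Gpx3 value was not tested. Cat, which encodes the peroxisomal catalase, had 89, 133 and 131 normalized counts in WT and 125, 126 and 128 in hTNFtg. The hTNFtg values lay inside the WT range, with a log2 fold change of 0.12 and a 95% interval of -0.54 to 0.79.

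Of the 5 NRF2 targets, Txnrd1 alone had hTNFtg libraries that did not overlap with WT. Txnrd1, the cytosolic thioredoxin reductase, had 42, 39 and 33 normalized counts in WT and 131, 56 and 54 in hTNFtg. Replicate 1, the shallow library in which Txnrd1 rests on 21 reads, stood far above the other two. The log2 fold change was 0.94 ± 0.43 (SE) with a 95% interval of 0.01 to 1.88, an unadjusted P of 0.0489 and an adjusted p of 0.643 in limma, short of the rule by its size. Without hTNFtg replicate 1 it was 0.53, and without hTNFtg replicate 2 or 3 it was 1.13 or 1.16 and passed the rule. The unadjusted P in limma was 0.054 with a pseudocount of 5 and 0.0505 with robust eBayes. It was 0.0753 without hTNFtg replicate 1 and 0.0834 to 0.133 without any 1 WT library.

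Hmox1, which encodes the haem-degrading enzyme heme oxygenase 1, had 329, 420 and 437 normalized counts in WT and 168, 321 and 756 in hTNFtg. The hTNFtg libraries reached both below and above the whole WT range. The log2 fold change of -0.19 had a 95% interval of -1.20 to 0.83, and it was 0.33 without hTNFtg replicate 1. Nqo1, the quinone reductase often used as a readout of NRF2, had 59, 36 and 32 normalized counts in WT and 62, 39 and 21 in hTNFtg. Both groups covered nearly the same range, and the log2 fold change was -0.13 with a 95% interval of -1.20 to 0.94, or -0.50 without hTNFtg replicate 1.

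Gclc, the catalytic subunit of the enzyme that starts glutathione synthesis, had 23, 35 and 39 normalized counts in WT and 37, 26 and 45 in hTNFtg. The groups overlapped, and the log2 fold change was 0.15 with a 95% interval of -0.83 to 1.13. Gclm, the modifier subunit of the same enzyme, had 278, 265 and 241 normalized counts in WT and 318, 208 and 375 in hTNFtg, with WT inside the hTNFtg range and a log2 fold change of 0.16 (95% interval -0.51 to 0.83). The values of Gclm are uncertain as a measure of its own mRNA. The processed pseudogene Gm6061 (chr3:122256728-122257219, same strand) overlaps an exon of a Gclm transcript, and its normalized count came to 68.6% to 85.3% of that of Gclm in each library. What Gclm had beyond Gm6061 was 49 to 60 normalized counts in WT, 38 to 100 in hTNFtg and 63 to 78 with infliximab. How many reads were counted for both genes was not tested. A further overlapping gene, Gm17494 on the opposite strand, had at most 9.

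**Figure D2:**
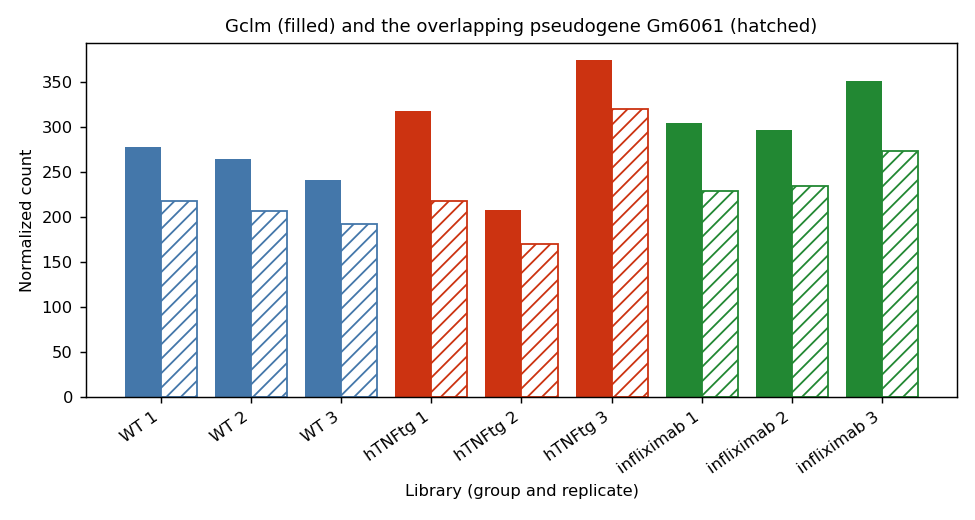
Normalized count (vertical axis, from 0) of Gclm (filled bars) and of the overlapping pseudogene Gm6061 (hatched bars) in each of the 9 libraries (horizontal axis), coloured by group. Gm6061 reaches 68.6% of Gclm in hTNFtg replicate 1, its lowest share, and 85.3% in hTNFtg replicate 3, where both bars are highest.

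The second comparison asked what 48 hours of infliximab changed in hTNFtg SFs. None of the 10 genes passed the rule in limma or in edgeR, and Sod2 was the one gene whose treated and untreated libraries did not overlap. By the rule, 1.49% of all 28540 genes tested rose and 0.936% fell, and 1.75% and 1.01% of those with a mean of at least 10. After adjustment limma called no gene at all at 0.05 (0% of genes tested), where 1026 genes had an unadjusted P under 0.05, and edgeR gave 168 genes. That P was under 0.05 for 1 of the 10 genes, Sod2, beside 3.59% of all genes tested and 5.21% of those with a mean of at least 10. Of genes with a mean of at least 10, 12.3% had groups that did not overlap. The untreated hTNFtg libraries are those of the first comparison, so both rest on the same 3 cultures.

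Sod2 had 435, 503 and 455 normalized counts in infliximab replicates 1, 2 and 3, below each of the untreated values of 673, 848 and 738. All 3 treated libraries lay in the gap between WT and untreated hTNFtg SFs. The mean of 464 ± 34.9 (SD, n = 3) was 0.617 times the untreated mean, with a log2 fold change of -0.69 ± 0.27 (SE), a 95% interval of -1.28 to -0.11, an unadjusted P of 0.0238 and an adjusted p of 0.803 in limma. Over the alternatives its adjusted p ran from 0.0679 to 0.914, and leaving out any 1 library gave -0.77 to -0.60. The unadjusted P of Sod2 was above 0.05 with robust eBayes (0.0525) and in edgeR (0.0505). In limma it was also above 0.05 without untreated replicate 2 (0.0758) or treated replicate 1 (0.0587) or 3 (0.0518). The myeloid sums, 8014, 3549 and 5978 in the untreated and 4240, 2397 and 5175 in the treated libraries, overlapped between the groups but lay lower with infliximab in their lowest, middle and highest values. Of the 18 marker rows, 1 was lower in every treated than in every untreated library and 0 were higher. Cx3cr1 lay higher with infliximab, at 149, 80 and 235 untreated and 231, 89 and 319 treated. The part of myeloid RNA in the Sod2 difference was not tested.

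Sod3 had 693, 821 and 758 normalized counts with infliximab, inside the untreated range of 633 to 922. Its log2 fold change was -0.10 with a 95% interval of -0.72 to 0.53. Gpx3 had 945, 813 and 1141, against 766 to 1014 untreated, a log2 fold change of 0.16 with a 95% interval of -0.47 to 0.80. For both genes the treated and untreated libraries lay on the same side of WT. Sod1 had 1481, 1372 and 1059 normalized counts, with a log2 fold change of -0.18 that became -0.51 without untreated replicate 1. Cat had 131, 92 and 151, with a log2 fold change of -0.05. Treated replicate 3, in which the hepatocyte markers were highest, had the lowest Sod1 and Gclc of the treated libraries. It also had the highest Cat, Gpx3, Hmox1 and Gclm. The part of the hepatocyte markers' RNA in these values was not tested.

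Among the NRF2 targets, Hmox1 had 511, 363 and 534 normalized counts with infliximab, inside the wide untreated range. The log2 fold change of 0.43 (95% interval -0.53 to 1.38) became -0.09 without untreated replicate 1. Txnrd1 had 51, 64 and 54, a log2 fold change of -0.38 that became 0.03 without that library. Nqo1 had 29, 56 and 32, and Gclc had 43, 30 and 24, both overlapping with untreated SFs, with log2 fold changes of 0.01 and -0.16. Without untreated replicate 1 that of Nqo1 was 0.37. Gclm had 304, 297 and 351, and its log2 fold change was 0.12, or 0.48 with array quality weights (unadjusted P 0.0318, adjusted p 0.247 in limma). The widest of these 95% intervals, that of Nqo1, ran from -1.05 to 1.06.

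**Figure D3:**
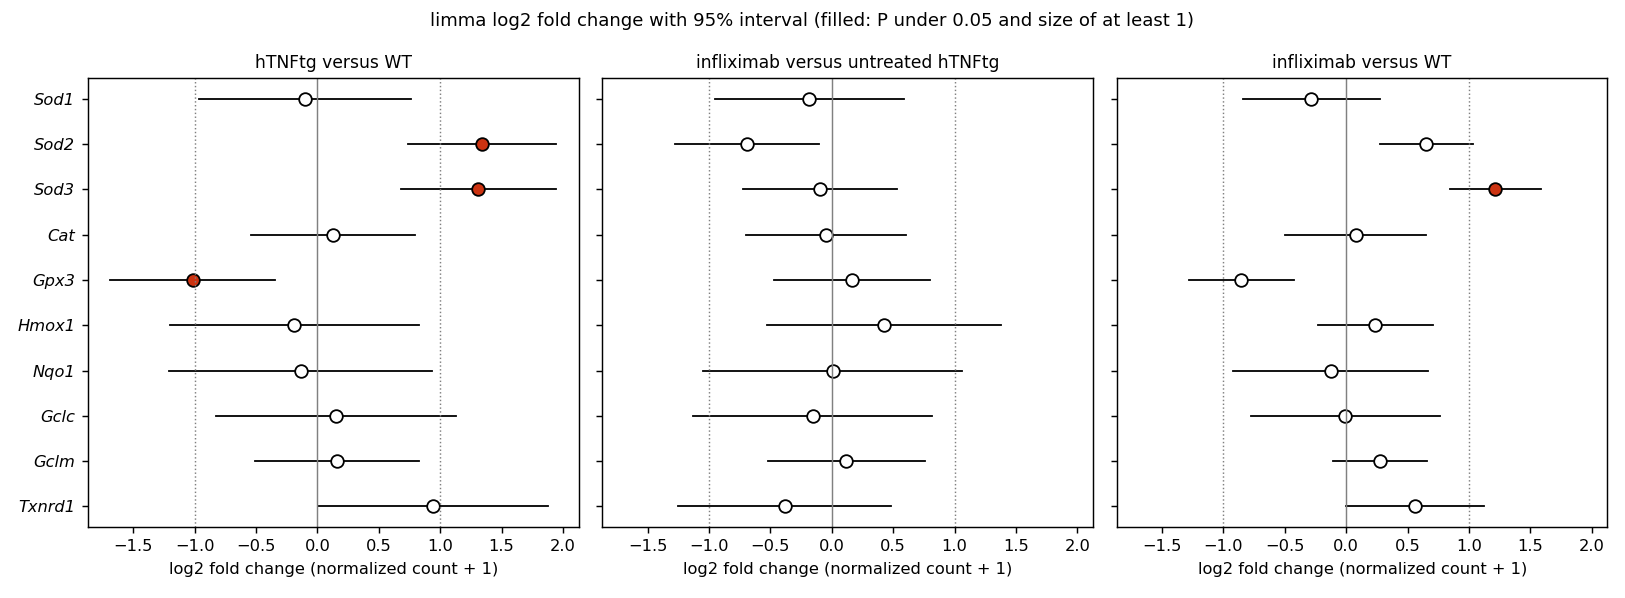
limma's log2 fold change of the normalized count plus 1 (horizontal axis) of the 10 genes (vertical axis) in the 3 comparisons, with lines for the 95% interval, dotted lines at a size of 1 and filled points for genes past the study's rule. Sod2, Sod3 and Gpx3 are filled for hTNFtg versus WT, none for infliximab versus untreated hTNFtg, and Sod3 alone for infliximab versus WT.

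The third comparison set infliximab-treated hTNFtg SFs beside WT SFs and shares its libraries with the other two. Sod3 rose by the rule, and in limma it was the one of the 10 genes with an adjusted p under 0.05. Over 28243 genes tested, 3.86% rose, 2.95% fell and 0.74% had an adjusted p under 0.05 in limma, and of those with a mean of at least 10, 4.34% rose and 3.33% fell. An unadjusted P under 0.05 was found for 3 of the 10 genes, beside 11.9% of all genes tested and 18.4% of those with a mean of at least 10. In 5 of the 10 genes the libraries of the groups did not overlap, as in 23.3% of genes with a mean of at least 10.

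Sod3 stood at 757 ± 64.0 with infliximab against 326 ± 22.3 in WT (SD, n = 3), with its lowest treated library at 693 and its highest WT library at 350. The log2 fold change was 1.21 ± 0.17 (SE) with a 95% interval of 0.84 to 1.58 and an adjusted p of 0.0196 in limma. It kept to 1.15 to 1.27 with any 1 library left out, where the adjusted p rose to between 0.087 and 0.335. The adjusted p was 0.407 with the replicate number as a block and 0.0664 in the fit of all 9 libraries, and edgeR gave an adjusted p of 2.83e-05. Sod2 remained above WT in all 3 libraries, with a log2 fold change of 0.65 (95% interval 0.27 to 1.03) and an adjusted p of 0.137. Gpx3 remained below WT in all 3 libraries, at -0.85 (95% interval -1.28 to -0.43) with an adjusted p of 0.0886 in limma. Over the alternatives that p ran from 0.00415 with robust eBayes to 0.407 with the replicate block, at 0.0109 in edgeR, 0.257 in the fit of all 9 libraries and 0.135 to 0.345 with any 1 library left out. Sod2 and Gpx3 both fell short of the rule by their size.

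Txnrd1 was above WT in all 3 treated libraries, at 51 to 64 against 33 to 42 normalized counts, with a log2 fold change of 0.56 (95% interval -0.01 to 1.12) and an adjusted p of 0.427 in limma. Gclm was at 297 to 351 against 241 to 278 in WT, a log2 fold change of 0.28 with an adjusted p of 0.549, and its overlap with Gm6061 applies here too. Hmox1 overlapped with WT, with a log2 fold change of 0.24 (95% interval -0.23 to 0.71). Sod1, Cat, Nqo1 and Gclc overlapped with WT as well, with log2 fold changes of -0.28 to 0.08.

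The spread between replicates differed among the 10 genes. The coefficient of variation (SD as a percentage of the mean, n = 3) was at most 19.7% in any group for Sod2, Sod3 and Gpx3. It was 73.5% for Hmox1, 54.6% for Txnrd1 and 50.5% for Nqo1 in untreated hTNFtg SFs, where 7 of the 10 genes had their largest value of the 3 groups. That group holds the shallow replicate 1, and the share of all genes with their largest value there was not computed. Cat went the other way, at 1.21% in untreated hTNFtg against 21.1% in WT and 24.1% in infliximab-treated SFs. Hmox1 and Nqo1 took opposite orders among the untreated hTNFtg libraries, with Hmox1 lowest and Nqo1 highest in the shallow replicate 1, where they rest on 27 and 10 reads.

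The regulators of NRF2 were read beside its targets, all 13 of the list being tested in each comparison. Nfe2l2 itself had 86, 96 and 108 normalized counts in WT, 137, 104 and 77 in hTNFtg and 77, 92 and 68 with infliximab. All 3 groups overlapped, with a log2 fold change of 0.10 in hTNFtg versus WT and -0.39 with infliximab versus untreated SFs, or -0.10 and -0.19 without hTNFtg replicate 1. Keap1 had 490, 379 and 245 in WT, 224, 381 and 396 in hTNFtg and 546, 345 and 650 with infliximab, and its groups overlapped in every comparison. Its log2 fold change was -0.14 in hTNFtg versus WT and 0.62 with infliximab versus untreated SFs, or 0.12 and 0.35 without hTNFtg replicate 1. Bach1 had 38, 36 and 34 in WT, 37, 35 and 61 in hTNFtg and 29, 29 and 28 with infliximab, which put the treated libraries below all others at a log2 fold change of -0.57 against untreated SFs (unadjusted P of 0.207), or -0.32 without hTNFtg replicate 3. Maff, one of the small MAF proteins, was the 1 gene of the list past the rule. It had 8, 7 and 3 in WT against 25, 28 and 23 in hTNFtg, a log2 fold change of 1.99 with an adjusted p of 0.339, and 15, 12 and 24 with infliximab, at 1.39 against WT with an adjusted p of 0.322 in limma. The latter call was lost without WT replicate 3 or infliximab replicate 1 or 3, at 1.03 to 1.45, with a pseudocount of 5, at 0.99, and with the replicate number as a block, where the unadjusted P was 0.0661. In the shallow hTNFtg replicate 1 the 25 normalized counts of Maff are 4 reads.

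**Figure D4:**
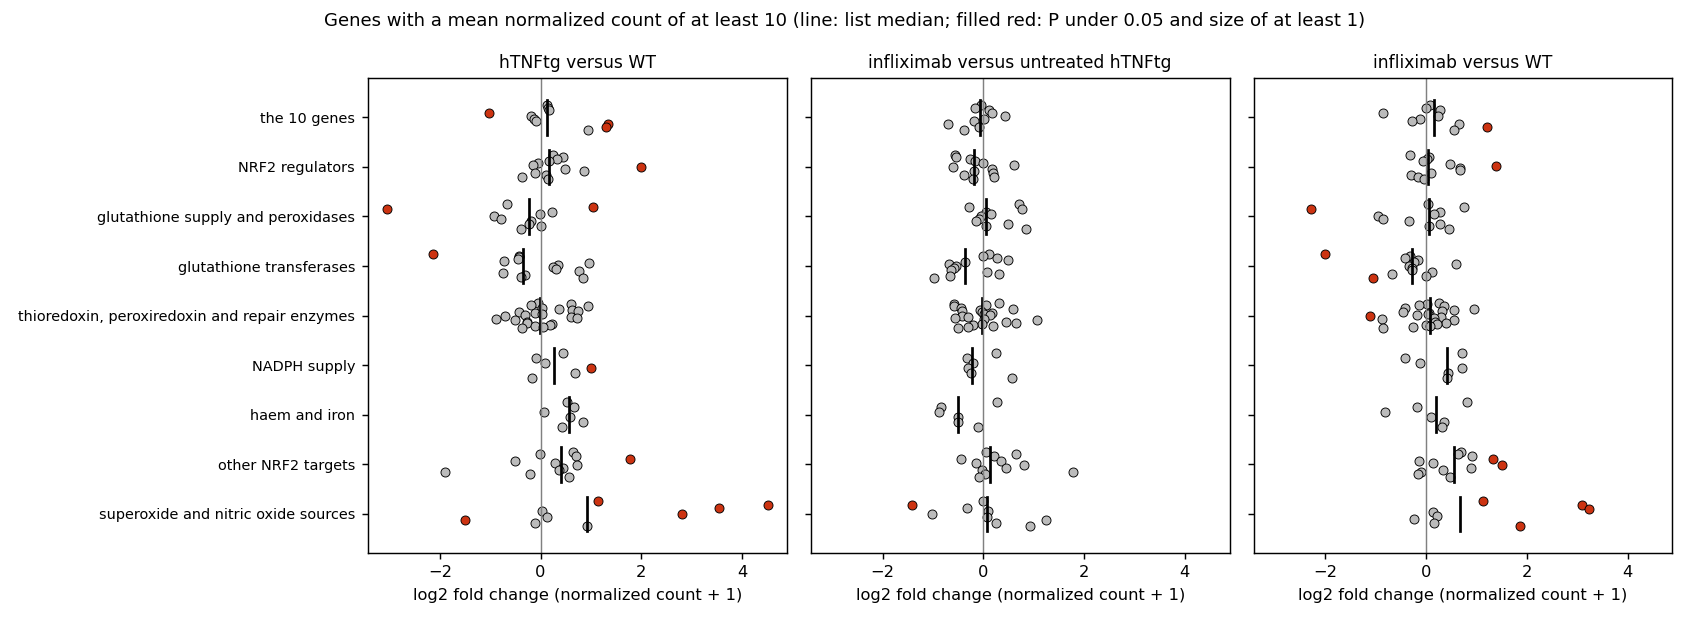
limma's log2 fold change (horizontal axis) of the 10 genes and of the genes of 8 pathway lists with a mean of at least 10 normalized counts (points, 1 row per list) in the 3 comparisons, with a black line at each row's median and red points for genes past the study's rule. In hTNFtg versus WT most rows straddle 0, and the points farthest from 0 are Cybb on the right and Ggt5 on the left.

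The 8 pathway lists held 111 further genes. In hTNFtg versus WT, 105 of them were tested, and 8 rose and 4 fell by the rule (3.35% and 3.04% of all genes tested did). Of the 95 with a mean of at least 10, 8 rose and 3 fell, beside 4.96% and 4.03% of all such genes. In limma 1 of the 105 had an adjusted p under 0.05. Their median log2 fold change was 0.10, against -0.003 over all genes tested. With infliximab versus untreated SFs, 0 of 107 rose and 1 fell, beside 1.49% and 0.936% of all genes tested. Of all genes with a mean of at least 10, 1.75% and 1.01% did. In infliximab versus WT 7 of 106 rose and 4 fell, beside 3.86% and 2.95% of all genes tested. Of all genes with a mean of at least 10, 4.34% and 3.33% did. In glutathione supply and the other peroxidases, Ggt5, a surface enzyme that cleaves glutathione and leukotriene C4, fell from 166, 184 and 142 normalized counts in WT to 12, 22 and 25 in hTNFtg, a log2 fold change of -3.05 with an adjusted p of 0.0084 in limma, and it was at 36, 46 and 21 with infliximab. The lowest of these, in hTNFtg replicate 1, is 2 reads, and without that library the log2 fold change was -2.75. Leaving out any 1 library other than hTNFtg replicate 3 raised the adjusted p to between 0.0639 and 0.257, and the replicate block to 0.478, while the gene stayed past the rule. Ggct, which acts on glutathione breakdown products, rose from 41, 55 and 35 to 69, 89 and 114, a log2 fold change of 1.03 with an adjusted p of 0.409 in limma, which was 0.89 without WT replicate 3, 0.85 without hTNFtg replicate 3, 0.97 with a pseudocount of 5 and 0.95 with array quality weights, each without the call. In infliximab versus WT, Ggt5 had a log2 fold change of -2.28 with an adjusted p of 0.018, which was 0.107 to 0.342 with any 1 library left out and 0.407 with the replicate block. The other genes of that list, among them Slc7a11, the cystine carrier of glutathione synthesis, did not pass the rule in hTNFtg versus WT.

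Of the 18 glutathione transferases, Gsta4, which handles lipid peroxidation products, fell from 25, 47 and 52 to 6, 9 and 10 normalized counts in hTNFtg and was at 6, 15 and 8 with infliximab. Its value in hTNFtg replicate 1 is 1 read. Its log2 fold change was -2.14 in hTNFtg versus WT (adjusted p 0.186) and -2.01 in infliximab versus WT (adjusted p 0.0938). The second gene of the list past the rule in hTNFtg versus WT, Gsta1, was at 0 to 4 normalized counts. Mgst2, a microsomal transferase, passed it in infliximab versus WT alone of the 3 comparisons, at 27, 23 and 28 against 60, 56 and 49 normalized counts and a log2 fold change of -1.05 (adjusted p 0.125 in limma), which was -0.99 without WT replicate 1, -0.97 without infliximab replicate 2 and -0.95 with a pseudocount of 5, each short of the rule. Of the 24 thioredoxin, peroxiredoxin and repair enzymes none passed the rule in hTNFtg versus WT, where the median was -0.02. In limma 2 of them had an unadjusted P under 0.05, beside 7.72% of all genes tested and 11.8% of those with a mean of at least 10. Prdx4, the peroxiredoxin of the secretory pathway, fell in infliximab versus WT, at 99, 104 and 129 against 153, 303 and 301 normalized counts and a log2 fold change of -1.12 (adjusted p 0.123 in limma), which was -0.96 without WT replicate 2 or 3. Srxn1, picked after its values were seen, is the sulfiredoxin that is a known NRF2 target, and it had 250, 246 and 292 in WT, 137, 247 and 307 in hTNFtg and 365, 327 and 337 with infliximab. All treated libraries were above all others, of which hTNFtg replicate 3 was the nearest, and Srxn1 did not pass the rule. The lowest value, that of hTNFtg replicate 1, is 22 reads.

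In NADPH supply, Pgd, an enzyme of the pentose phosphate pathway, rose from 464, 524 and 511 normalized counts to 629, 1028 and 1549 in hTNFtg, a log2 fold change of 1.00 with an adjusted p of 0.401 in limma that is at the limit of the rule. The call was lost with a pseudocount of 5 and without WT replicate 1 or 2 or hTNFtg replicate 2 or 3, at 0.69 to 1.04, and the value was 1.34 without hTNFtg replicate 1. In the haem and iron list no gene passed the rule, though 4 of the 7 genes, the ferritin subunits Fth1 and Ftl1 and the haem enzymes Hmox2 and Blvrb, were higher in each hTNFtg library than in each WT library, as 18.6% of genes with a mean of at least 10 were apart in either direction. Fth1, named after its values were seen, had 4120, 4284 and 3978 in WT, 7617, 5776 and 5474 in hTNFtg and 4273, 4486 and 4455 with infliximab. Among 14 other NRF2 targets, Akr1b8, an aldo-keto reductase, rose from 26, 25 and 20 to 75, 78 and 96 normalized counts in hTNFtg, a log2 fold change of 1.77 with an adjusted p of 0.0766, and had 60, 65 and 56 with infliximab, which also passed the rule against WT at 1.32 (adjusted p 0.0653 in limma). Its treated libraries lay between the other groups, as those of Sod2 did. Ces2g, a carboxylesterase, was the other gene of that list to pass the rule in infliximab versus WT, at 22, 24 and 19 against 10, 8 and 4.

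The list of superoxide and nitric oxide sources held the most genes past the rule of the 8 lists, 4 raised and 1 lowered of 10 tested in hTNFtg versus WT, where 3.35% and 3.04% of all genes tested were. Of all genes with a mean of at least 10, 4.96% and 4.03% were. Cybb, the catalytic subunit of the phagocyte NADPH oxidase, had 0, 35 and 13 normalized counts in WT, 174, 91 and 370 in hTNFtg and 62, 32 and 149 with infliximab. Its log2 fold change in hTNFtg versus WT was 4.51 (adjusted p 0.115 in limma), and 3.73 in edgeR (adjusted p 2.2e-14). Its size moved with the libraries and the pseudocount, at 3.01 without WT replicate 1, in which Cybb is at 0, and 3.60 with a pseudocount of 5. Without WT replicate 2 it was 5.60, and without any of the other 4 libraries at least 3.99. It was -1.42 with infliximab versus untreated SFs (adjusted p 0.803), where the groups overlapped and where it was the 1 gene of all lists past the rule. That call was lost without untreated replicate 1 or 3 or treated replicate 1 or 2, at -1.45 to -0.90, and also with array quality weights, with a mean of at least 10 and in the fit of all 9 libraries. The replicate block kept the call in limma (unadjusted P 0.00161, adjusted p 0.693). In edgeR Cybb was at -1.40 with an adjusted p of 0.0195. In infliximab versus WT it had 3.09 (adjusted p 0.292), and this call was lost on leaving out any 1 library other than WT replicate 2, at 1.59 to 3.61, and with the replicate block, robust eBayes and array quality weights, where the unadjusted P was 0.0719, 0.138 and 0.0685. Ncf1 and Ncf4, cytosolic subunits of that oxidase, had log2 fold changes of 3.55 and 2.81 in hTNFtg versus WT, with adjusted p-values of 0.0664 and 0.343 in limma. Ncf1 had 2, 28 and 11 normalized counts in WT, and its value was 2.67 without WT replicate 1 and 4.31 without WT replicate 2. Ncf4 rests on 2 reads in hTNFtg replicate 1 and is at 0 in WT replicate 1. Its log2 fold change was 3.25 without the former, 1.92 without the latter and 1.80 with a pseudocount of 5. Cyba, the membrane partner shared with NOX4, rose from 149, 165 and 138 to 212, 342 and 514, at 1.15 (adjusted p 0.267), at 0.84 without hTNFtg replicate 3 and 1.47 without hTNFtg replicate 1. Nox4, the oxidase of fibroblasts and other tissue cells, fell from 43, 44 and 37 to 6, 20 and 22, at -1.49 (adjusted p 0.491), and was at 56, 33 and 22 with infliximab. The value of hTNFtg replicate 1 for Nox4 is 1 read, and without that library the change was -0.94 and short of the rule. Without any 1 of the WT libraries it was -1.57 to -1.45 and also not past it. Cybb, Ncf1 and Ncf4 are themselves used as myeloid genes, and they rose in the libraries in which the myeloid markers Lyz2, C1qa and Tyrobp were high. The part of myeloid RNA in these values was not tested. In infliximab versus WT, Cyba was at 353, 294 and 349 normalized counts, a log2 fold change of 1.13 with an adjusted p of 0.0286 in limma. That p was 0.0943 to 0.342 with any 1 library left out, 0.407 with the replicate block and 0.178 in the fit of all 9 libraries. Ncf1 was at 3.23 with an adjusted p of 0.0783, and at 2.35 to 3.99 with any 1 library left out. Xdh, the xanthine oxidoreductase, passed the rule there at 1.86 (adjusted p 0.334) with overlapping groups of 418, 278 and 191 against 230, 101 and 19, a call lost on leaving out any 1 library other than WT replicate 1, at 0.88 to 2.14, and with robust eBayes.

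**Figure D5:**
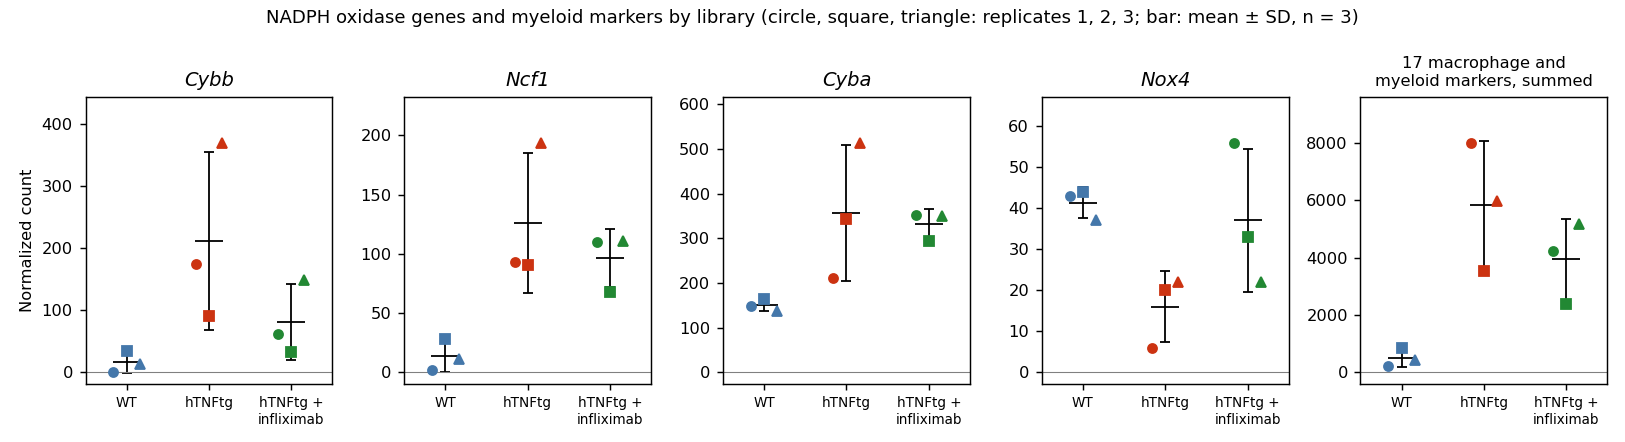
Normalized count (vertical axis, linear) of Cybb, Ncf1, Cyba and Nox4 and of the sum of 17 macrophage and myeloid markers in each of the 9 libraries, by group, with circles, squares and triangles for replicates 1, 2 and 3 and bars for the mean ± SD (n = 3). The myeloid sum is 218 to 842 in WT, 3549 to 8014 in hTNFtg and 2397 to 5175 with infliximab, and Cybb and Ncf1 are lowest in WT, while Nox4 is lowest in hTNFtg.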

How the data were processed

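RNA of 9 libraries (3 WT, 3 untreated hTNFtg and 3 infliximab-treated hTNFtg SF cultures) was prepared by the authors with a 3′ mRNA kit and sequenced on an Ion Proton. Per the study's methods and the submitters' processing notes, reads were mapped to mm10 with TopHat2 and, where unmapped, with Bowtie2, counted per gene with GenomicRanges and normalized with DESeq through metaseqR. Versions, and whether counting used the strand, are not given in the sources used here. The deposited values are normalized counts that the authors rounded to whole numbers (unit: score), and in hTNFtg replicate 1 a signal that is whole reads times a factor. The reads are therefore approximate in all 9 libraries. The design, written for normalized counts, was kept. The authors' fold changes and p-values were not used, nor were 24 further per-sample columns.

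Libraries are scaled by 1 factor each, and both tables, joined by gene ID, agree in the hTNFtg libraries they share. Groups were taken from the labels. Each comparison used limma 3.58.1 (lmFit and eBayes with trend, R 4.3.3) on log2(normalized count + 1), in the 6 libraries compared and in genes above 0 in at least 1 of them, with Benjamini-Hochberg adjustment over all genes tested. Fold changes are on that scale. The rule for raised and lowered genes is the study's (P below 0.05 before adjustment, log2 fold change beyond 1 in either direction). The step of 1 read was estimated from the gaps between values. Both it and the limma fit were tested on simulated data. The text names the 10 genes, Nfe2l2, Keap1 and Bach1, and up to 6 genes per pathway list and comparison that passed the rule with a mean of at least 10, exceptions being stated. The 10 genes, a list of symbols with no measured value in its rule, and the pathway lists were chosen with earlier results of these data known. Alternatives were a pseudocount of 5 or 0.5, a mean of at least 10, median-ratio rescaling, robust eBayes, array quality weights, a replicate block, 1 fit of all 9 libraries, edgeR 4.0.16 (quasi-likelihood) with approximate reads, and each library left out. Counting error sets a floor of 3 reads per library. Figures were drawn with matplotlib 3.10.9.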

Additional observations from a re-analysis of the deposited data

How the results depend on the processing

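Of 450 values of the 10 genes under alternatives, 411 kept direction and side of the rule, 3 lost the call, 2 gained it and 34 changed sign. The calls of Sod2 and Sod3 in hTNFtg versus WT and of Sod3 in infliximab versus WT held under all 15 alternatives run, and the 3 lost calls are the Gpx3 values given in the report. The number of the 10 genes past the rule was 2 to 4, 0 and 1 in the 3 comparisons with any 1 library left out, and 3, 0 and 1 under every other alternative. No scaling moved the median of genes with a mean of at least 10 by over 0.1. The changes of sign all concern genes that did not pass the rule, and their cause was not tested.

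In hTNFtg versus WT, leaving out 1 library gave log2 fold changes of -0.34 to 0.23 for Sod1, -0.06 to 0.22 for Cat, -0.75 to 0.33 for Hmox1, -0.50 to 0.26 for Nqo1, -0.07 to 0.36 for Gclc, -0.02 to 0.40 for Gclm, -0.10 to 0.31 for Nfe2l2 and -0.41 to 0.12 for Keap1. Array quality weights gave 0.05 for Sod1, -0.20 for Gclc, -0.18 for Gclm and 0.04 for Keap1, and edgeR gave 0.10 for Hmox1. In infliximab versus untreated hTNFtg, leaving out 1 library gave -0.51 to 0.02 for Sod1, -0.20 to 0.15 for Cat, -0.09 to 0.99 for Hmox1, -0.39 to 0.37 for Nqo1, -0.38 to 0.03 for Gclc, -0.13 to 0.30 for Gclm and -0.60 to 0.03 for Txnrd1, and array quality weights gave 0.19 for Gclc, 0.48 for Gclm and -0.05 for Txnrd1. In that comparison Sod3 ran from -0.27 to 0 and Gpx3 from 0.04 to 0.28 with any 1 library left out. In infliximab versus WT, leaving out 1 library gave -0.53 to -0.10 for Sod1, -0.11 to 0.28 for Cat, 0.11 to 0.41 for Hmox1, -0.41 to 0.13 for Nqo1 and -0.23 to 0.18 for Gclc. Array quality weights gave -0.07 for Cat and 0.03 for Nqo1, and median-ratio rescaling gave 0.01 for Gclc.

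Over all genes, hTNFtg versus WT had 956 raised, 867 lowered and 137 genes with an adjusted p under 0.05. These counts were 2218, 1322 and 1004 with array quality weights. edgeR gave 1556 raised and 953 adjusted, a mean of at least 10 gave 525 lowered, and robust eBayes and the fit of all 9 libraries gave 461 and 381 adjusted. Leaving out 1 library gave 691 to 1510 raised, highest without hTNFtg replicate 1, and 1 to 44 adjusted. In infliximab versus untreated hTNFtg the counts were 426, 267 and 0. They were 219 raised and 132 lowered with a pseudocount of 5, 193 and 121 with a mean of at least 10, and 735, 1390 and 65 with array quality weights. edgeR gave 786 lowered and 168 adjusted, all 9 libraries in 1 fit 432 and 3, and robust eBayes 3 adjusted. Leaving out 1 library gave 298 to 700 raised, with 655 and 700 without hTNFtg replicates 2 and 3, and 120 to 930 lowered, highest without hTNFtg replicate 1. In infliximab versus WT the counts were 1090, 833 and 209. They were 614 and 443 with a pseudocount of 5 and 595, 461 and 488 with a mean of at least 10. Array quality weights gave 378 adjusted, robust eBayes 1182, all 9 libraries 69 and edgeR 1324. Leaving out 1 library gave 0 to 1 adjusted.

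The replicate block left the calls of the 10 genes by the rule as they were. Among the other named genes run under the alternatives, it ended only the calls of Maff and Cybb in infliximab versus WT. The call of Gsta1 was not run under them. The block gave 0 genes with an adjusted p under 0.05 in hTNFtg versus WT and in infliximab versus WT. Libraries with the same number correlated at -0.131 to 0.352 in hTNFtg versus WT, where those with different numbers ran from -0.485 to 0.24. There hTNFtg replicates 1 and 3 correlated most with the WT replicate of their own number (0.292 and 0.352). Replicate 2 correlated most with WT replicate 1 (0.192). In infliximab versus untreated hTNFtg the same numbers gave 0.069 to 0.255 and different numbers -0.242 to 0.122. In infliximab versus WT they gave -0.143 to 0.107 and -0.173 to 0.211. These values serve only to set same numbers beside different ones. Infliximab replicate 1 correlated more with untreated replicate 2 (0.122) than with replicate 1. Infliximab replicates 2 and 3 correlated most with the untreated replicate of their own number (0.188 and 0.255). Whether libraries share more than a number was not tested. Of the 10 genes, depth limits Gclc and Nqo1 most, at 6 and 10 reads in hTNFtg replicate 1. Of the other genes named, Gsta1 had 0 reads there, Nox4, Gsta4 and Slc7a11 had 1, and Ggt5, Ncf4 and Ces2g had 2, under the floor of 3.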
